A study of Schizosaccharomyces pombe with 8 samples.

Results

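The RNAs described here are the cytoplasmic transfer RNAs that fission yeast (Schizosaccharomyces pombe) encodes in its nucleus. Members were the rows of the count table whose systematic name begins with SPATRNA, SPBTRNA or SPCTRNA, for chromosomes I, II and III. The 3 letters that follow TRNA name the amino acid. This rule gave 171 tRNA genes of 6974 listed features, for all 20 standard amino acids. The 25 mitochondrial tRNA features in the same table had a count of 0 in every library and were kept apart.

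Counts came from RNA that followed a sequential immunoprecipitation (seqRIP-seq) of Mmi1 and Mei2. Mmi1 is a YTH-family RNA-binding protein that removes meiotic transcripts from growing cells. Mei2 is the RNA-binding protein that drives entry into meiosis. The TAP-Mmi1 strain carried kanMX::Pnmt41-TAP-Mmi1 and natMX::Pnmt1-3xFLAG-Mei2, and the control, the GFP-Mmi1 strain, carried kanMX::Pnmt41-GFP-Mmi1 with the same natMX::Pnmt1-3xFLAG-Mei2. Both proteins were thus driven by thiamine-repressible nmt promoters in both strains, both strains overexpressed Mei2 in mitotic cells, and neither strain lacked the FLAG tag. Cells were grown in minimal medium (EMM) at 30 °C to exponential phase and fixed with 0.2% formaldehyde. The lysate was bound to IgG, which holds the TAP tag, released with TEV protease, and bound again to anti-FLAG. The control Mmi1 had no TAP tag, so its immunoprecipitate (IP) measured what passed both steps without that tag. Each IP had a matching whole-cell extract (WCE), and each of the 4 groups had 2 libraries, numbered 1 and 2. The series' description calls the 2 libraries of a group biological duplicates, and the p-values rest on the spread between them.

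A tRNA is transcribed by RNA polymerase III as a precursor with extra bases at both ends. Some precursors also hold a short intron next to the anticodon, which the tRNA-splicing endonuclease and ligase remove. The mature molecule carries CCA at its 3′ end, is folded into a compact cloverleaf and bears many modified bases. Several tRNA genes can encode the same mature RNA, and several tRNAs with different anticodons (isoacceptors) can carry the same amino acid. In fission yeast tRNA genes also lie in clusters at the centromeres, where they act as barriers to heterochromatin.

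In the RefSeq annotation (build ASM294v3) 56 of the genes lay on chromosome I, 68 on II and 47 on III. Of these, 28 lay within fixed position intervals set for the centromeres. Mature tRNAs were 71 to 84 nt long, so a read of 75 nt covered most of one. An intron of 7 to 30 nt was annotated in 44 genes. Only 61 distinct mature sequences stood behind the 171 genes, since 142 genes had at least 1 identical copy elsewhere. The anticodon read from the sequence matched the amino acid of the name in all 171 genes. For 2 of them, SPBTRNALYS.07 and SPBTRNASER.06, the annotated intron left no anticodon loop, and the intron of another gene with the same whole sequence was used. Another listed feature overlapped 2 members, SPATRNATYR.01 (SPAC105.03c) and SPBTRNAGLU.08 (SPNCRNA.1669), and 23 members overlapped some feature of the annotation. The sources used here do not say whether counting used strand, so the counts of these genes are uncertain. In what follows a mature sequence is called by its amino acid, its anticodon and a number.

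The sequences on which the results turn are these, from RefSeq build ASM294v3, 5′ to 3′ on the transcribed strand. The first 8 are mature sequences without the intron and without CCA, with the anticodon in capitals. Asp-GTC-1 and Met-CAT-1 are shown because together they gave most of the tRNA counts in every library except the TAP-Mmi1 IPs. Met-CAT-1 is the initiator tRNA, which reads the first codon of a message, and its ggg and ccc around the anticodon loop are typical of initiators. Met-CAT-2 is the elongator. The Lys and Val pairs differ in anticodon and in whether their genes hold an intron, and Cys-GCA-1 was high in the TAP-Mmi1 IPs.
Asp-GTC-1: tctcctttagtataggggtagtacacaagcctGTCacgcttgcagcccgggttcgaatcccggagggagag
Met-CAT-1: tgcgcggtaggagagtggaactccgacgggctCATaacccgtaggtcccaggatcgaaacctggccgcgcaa
Met-CAT-2: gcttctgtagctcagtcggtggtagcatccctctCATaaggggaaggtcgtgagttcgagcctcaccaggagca
Lys-CTT-1: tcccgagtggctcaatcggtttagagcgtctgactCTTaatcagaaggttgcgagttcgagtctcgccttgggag
Lys-TTT-1: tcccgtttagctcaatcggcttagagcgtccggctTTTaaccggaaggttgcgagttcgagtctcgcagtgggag
Val-AAC-1: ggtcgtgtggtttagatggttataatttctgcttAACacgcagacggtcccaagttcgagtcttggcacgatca
Val-TAC-1: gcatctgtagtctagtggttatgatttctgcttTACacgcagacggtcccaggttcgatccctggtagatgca
Cys-GCA-1: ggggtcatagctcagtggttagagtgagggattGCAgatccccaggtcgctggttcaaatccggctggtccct
The next 3 are whole genes with the intron in capitals. They are shown because their counts in the TAP-Mmi1 IPs came close to or passed those in the extract. SPATRNASER.01 lies at I:1096369-1096466 on the plus strand, SPATRNAVAL.04 at I:3710739-3710821 on the minus strand and SPBTRNALYS.07 at II:1599706-1599788 on the plus strand.
SPATRNASER.01: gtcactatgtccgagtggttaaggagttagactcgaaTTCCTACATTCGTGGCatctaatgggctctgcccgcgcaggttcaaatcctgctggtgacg
SPATRNAVAL.04: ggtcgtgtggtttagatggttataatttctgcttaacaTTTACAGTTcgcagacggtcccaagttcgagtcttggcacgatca
SPBTRNALYS.07: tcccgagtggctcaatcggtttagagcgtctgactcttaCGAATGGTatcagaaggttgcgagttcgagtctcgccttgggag

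The libraries held 34416171 to 53709147 counts in all. Only the extracts went through rRNA depletion. In the TAP-Mmi1 IPs 79.2 and 81.9% of all counts fell on rRNA features, beside 14.2 and 27.4% in TAP-Mmi1 WCE, 96.4 and 96.0% in GFP-Mmi1 IP, and 7.98 and 11.6% in GFP-Mmi1 WCE. This left 7596584 and 6836961 counts outside rRNA in the TAP-Mmi1 IPs but 1249213 and 1374433 in the GFP-Mmi1 IPs. The control IPs were therefore the shallowest libraries for tRNAs. In both of them 125 of the 171 genes had under 10 counts, and 20 genes had none at all. In the TAP-Mmi1 IPs 4 genes were at 0 in both libraries, and no gene was at 0 in any WCE.

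Nuclear tRNAs summed to 7394 and 7522 counts in the TAP-Mmi1 IPs and to 147637 and 373111 in TAP-Mmi1 WCE, against 4545 and 5980 in the GFP-Mmi1 IPs and 113469 and 104057 in GFP-Mmi1 WCE. As a share of the counts outside rRNA, the means were 0.104 ± 0.00897% in TAP-Mmi1 IP, 0.674 ± 0.500% in TAP-Mmi1 WCE, 0.399 ± 0.0504% in GFP-Mmi1 IP and 0.331 ± 0.0108% in GFP-Mmi1 WCE (SD, n = 2 each). Both TAP-Mmi1 IPs thus lay below every other library on this scale, an order that rested on Asp tRNA. Without the Asp counts the shares were 0.0856 and 0.0769% in the TAP-Mmi1 IPs and 0.120 and 0.351% in TAP-Mmi1 WCE. They were 0.102 and 0.113% in the GFP-Mmi1 IPs and 0.0782 and 0.0794% in GFP-Mmi1 WCE. The TAP-Mmi1 IPs then overlapped GFP-Mmi1 WCE and lay below the GFP-Mmi1 IPs by less. With Asp kept, TAP-Mmi1 WCE replicate 2 stood apart at 1.03%, with a 95% Wilson interval of 1.02 to 1.03%, which covers counting error only. The other 3 extracts lay between 0.320 and 0.338%. Its excess reached every amino acid, from 1.48-fold over replicate 1 for Ala to 4.33-fold for Glu. The amino acid sums and the sequence sums that passed are given with and without it. With rRNA kept in the denominator the shares in the IPs were 0.0201 ± 0.000283% in TAP-Mmi1 and 0.0153 ± 0.00297% in GFP-Mmi1 (SD, n = 2 each), so the order of the IPs depended on how rRNA was counted.

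Which tRNAs filled these libraries also differed. Asp tRNA made up 12.1 and 30.1% of the tRNA counts in the TAP-Mmi1 IPs and 62.5 and 65.8% in TAP-Mmi1 WCE, against 72.0 and 73.9% in the GFP-Mmi1 IPs and 76.9 and 75.4% in GFP-Mmi1 WCE. The initiator tRNA made up 5.49 and 4.53% in the TAP-Mmi1 IPs and 18.2 and 16.5% in TAP-Mmi1 WCE, against 8.32 and 8.85% in the GFP-Mmi1 IPs and 5.45 and 5.96% in GFP-Mmi1 WCE. The genes with an intron made up 51.1 and 28.7% in the TAP-Mmi1 IPs and 4.78 and 3.24% in TAP-Mmi1 WCE, against 6.75 and 5.47% in the GFP-Mmi1 IPs and 3.49 and 3.89% in GFP-Mmi1 WCE. The TAP-Mmi1 IPs were thus low in Asp and high in intron-containing genes relative to the 6 other libraries, with no overlap. The 2 shares are tied, since Asp fills most of the other libraries. Outside Asp and the initiator tRNA, the intron-containing genes made up 62.0 and 43.9% in the TAP-Mmi1 IPs and 24.8 and 18.4% in TAP-Mmi1 WCE, against 34.3 and 31.7% in the GFP-Mmi1 IPs and 19.8 and 20.9% in GFP-Mmi1 WCE, a smaller difference that still did not overlap. A single gene, SPATRNASER.01, carried much of the second difference. Without it the intron-containing genes made up 26.7 and 24.4% of the remaining tRNA counts in the TAP-Mmi1 IPs, and at most 5.65% in the others.

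**Figure D1:**
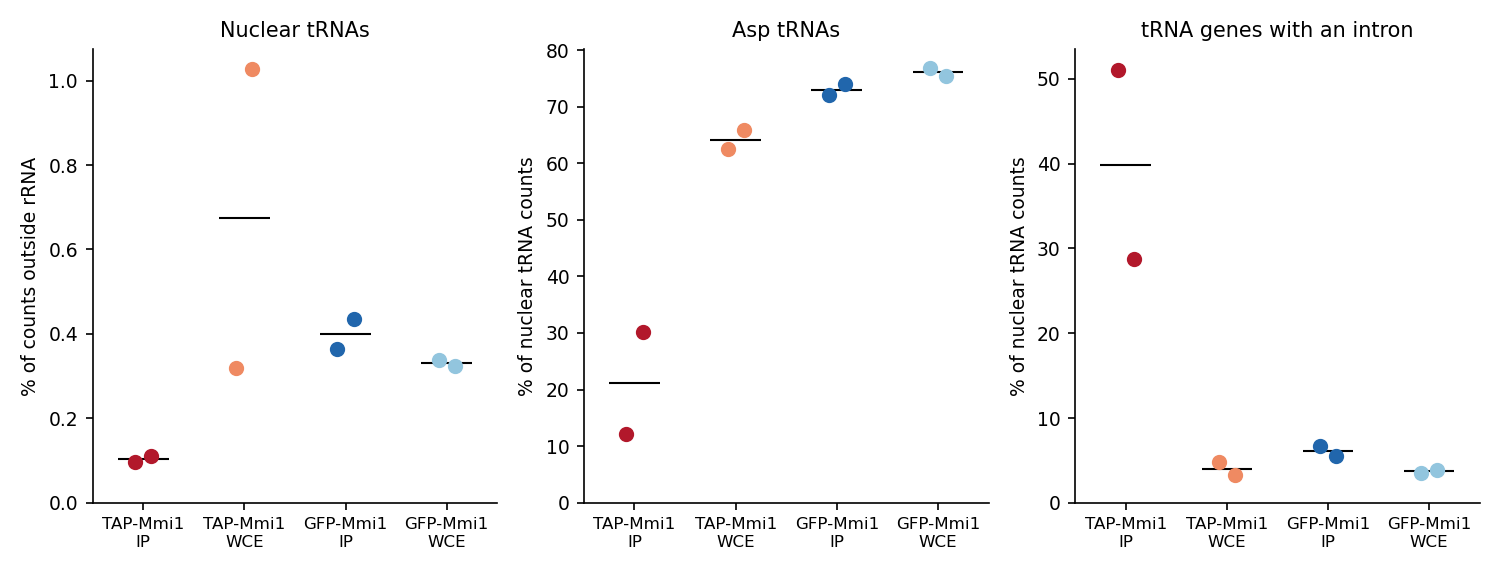
Share of counts in each of the 8 libraries (points) with the group mean (line). The left panel shows nuclear tRNAs as a percent of counts outside rRNA, the middle panel Asp tRNAs as a percent of nuclear tRNA counts, and the right panel intron-containing tRNA genes as a percent of nuclear tRNA counts. TAP-Mmi1 WCE replicate 2 stands at 1.03% on the left, and the TAP-Mmi1 IPs at 51.1 and 28.7% on the right.

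The main question of the design is whether an RNA was recovered with both tagged proteins more than in the control. It was measured as the enrichment over the control, which is the log2 ratio of IP to WCE in the TAP-Mmi1 strain minus the same log2 ratio in the GFP-Mmi1 strain. Positive values mean more recovery with TAP-Mmi1. Values were fitted with edgeR and scaled by TMM, which sets the typical feature near 0. A feature passed at a Benjamini-Hochberg adjusted p under 0.05 over all features fitted.

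Summed over all 171 genes, the tRNAs were recovered less with TAP-Mmi1 than in the control. Their enrichment over the control was −3.16 (SE 0.66, adjusted p = 0.00631), beside a median of −0.05 over all features. Without TAP-Mmi1 WCE replicate 2 it was −1.97 (adjusted p = 0.00511). Within the TAP-Mmi1 strain the tRNA sum fell by 2.38 on the log2 scale in IP relative to WCE (SE 0.48, adjusted p = 0.00315), or by 1.30 without that library. In the GFP-Mmi1 strain IP minus WCE was 0.77 (SE 0.46, adjusted p = 0.273). Scaling by library totals, with rRNA included, gave an enrichment of −0.38 (adjusted p = 0.528), while the median of all features moved to 2.63. On that scale the tRNA sum again lay below the typical feature but was not itself past the threshold. Counts are relative within a library, so a lower share in an IP cannot be told apart from more of other RNA in it, and in a culture fewer cells with an RNA and less RNA per cell cannot be told apart either.

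By amino acid, the loss was uneven. Of the 20 sums, 6 were lower in enrichment over the control and 0 were higher, where 24% and 19.3% of all features in the same fit were lower and higher. The 6 were Met, Asp, Glu, Gly, Val and Thr. DESeq2 called 8 sums lower and 0 higher, where 1744 and 1699 of 6784 features were lower and higher. At an unadjusted p under 0.05 there were 8 sums lower and 0 higher. Here and below no share of all features is given at an unadjusted p. Scaling by library totals turned the split to 11 higher and 2 lower, where 91.1% and 0.344% of all features were higher and lower, so the direction of most sums holds only relative to the typical feature.

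Met tRNA had 469 and 394 counts in the TAP-Mmi1 IPs and 28421 and 65198 in TAP-Mmi1 WCE, against 401 and 586 in the GFP-Mmi1 IPs and 7123 and 7140 in GFP-Mmi1 WCE. These are unscaled counts. The TAP-Mmi1 IPs were the deeper IPs outside rRNA, so like counts were a smaller share in them, and the TAP-Mmi1 extracts held the most Met tRNA. Its enrichment over the control, −5.30 (SE 0.66, adjusted p = 0.000600), was the lowest of the 20. Asp tRNA had 895 and 2264 counts in the TAP-Mmi1 IPs and 92283 and 245607 in TAP-Mmi1 WCE, against 3273 and 4421 in the GFP-Mmi1 IPs and 87251 and 78488 in GFP-Mmi1 WCE. Here the TAP-Mmi1 IPs were the lowest libraries without overlap, although they were the deeper IPs outside rRNA. The Asp enrichment was −4.72 (SE 0.86, adjusted p = 0.00361).

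Glu tRNA had 29 and 38 counts in the TAP-Mmi1 IPs and 2587 and 8829 in TAP-Mmi1 WCE, against 58 and 68 in the GFP-Mmi1 IPs and 2588 and 2334 in GFP-Mmi1 WCE. Gly tRNA had 53 and 81 counts in the TAP-Mmi1 IPs and 4846 and 16386 in TAP-Mmi1 WCE, against 49 and 62 in the GFP-Mmi1 IPs and 4583 and 4050 in GFP-Mmi1 WCE. Both were rare in every IP, with enrichments of −4.54 for Glu (SE 0.97, adjusted p = 0.00718) and −3.44 for Gly (SE 0.97, adjusted p = 0.0235). Val tRNA had 197 and 298 counts in the TAP-Mmi1 IPs and 4896 and 9890 in TAP-Mmi1 WCE, against 144 and 187 in the GFP-Mmi1 IPs and 3831 and 3439 in GFP-Mmi1 WCE (enrichment −2.83, SE 0.62, adjusted p = 0.00805). Thr tRNA had 102 and 251 counts in the TAP-Mmi1 IPs and 2381 and 4160 in TAP-Mmi1 WCE, against 81 and 70 in the GFP-Mmi1 IPs and 986 and 1399 in GFP-Mmi1 WCE (enrichment −2.59, SE 0.72, adjusted p = 0.0221). Met, Asp, Glu and Val passed without any single library, while Gly missed the threshold without each IP and each GFP-Mmi1 WCE, and Thr without TAP-Mmi1 IP replicate 1, either GFP-Mmi1 IP, GFP-Mmi1 WCE replicate 1 or TAP-Mmi1 WCE replicate 2. Without TAP-Mmi1 WCE replicate 2 the enrichments were −4.22 for Met, −3.47 for Asp, −3.00 for Glu, −1.92 for Gly and −1.87 for Val, all past the threshold, and −1.78 for Thr (adjusted p = 0.0968).

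The other 14 sums did not pass. Arg stood at −1.85 (SE 0.65, adjusted p = 0.0519) and Ile at −1.70 (SE 0.65, adjusted p = 0.0681), both past the threshold with culture as a block (8 sums lower in all, where 20.9% of all features were lower). Then came Pro at −1.20, Gln at −1.12, Asn at −1.11, Phe at −0.93, Leu and Trp at −0.53, Lys at −0.39, Ser at −0.36, His at −0.17 and Ala at −0.15. Only Tyr (0.28) and Cys (0.94, SE 0.58, adjusted p = 0.228) were above 0. Neighbours in this order lay within their SEs of each other. Met, Asp and Glu with their SEs did not reach Thr with its SE, and Gly and Val lay between.

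**Figure D2:**
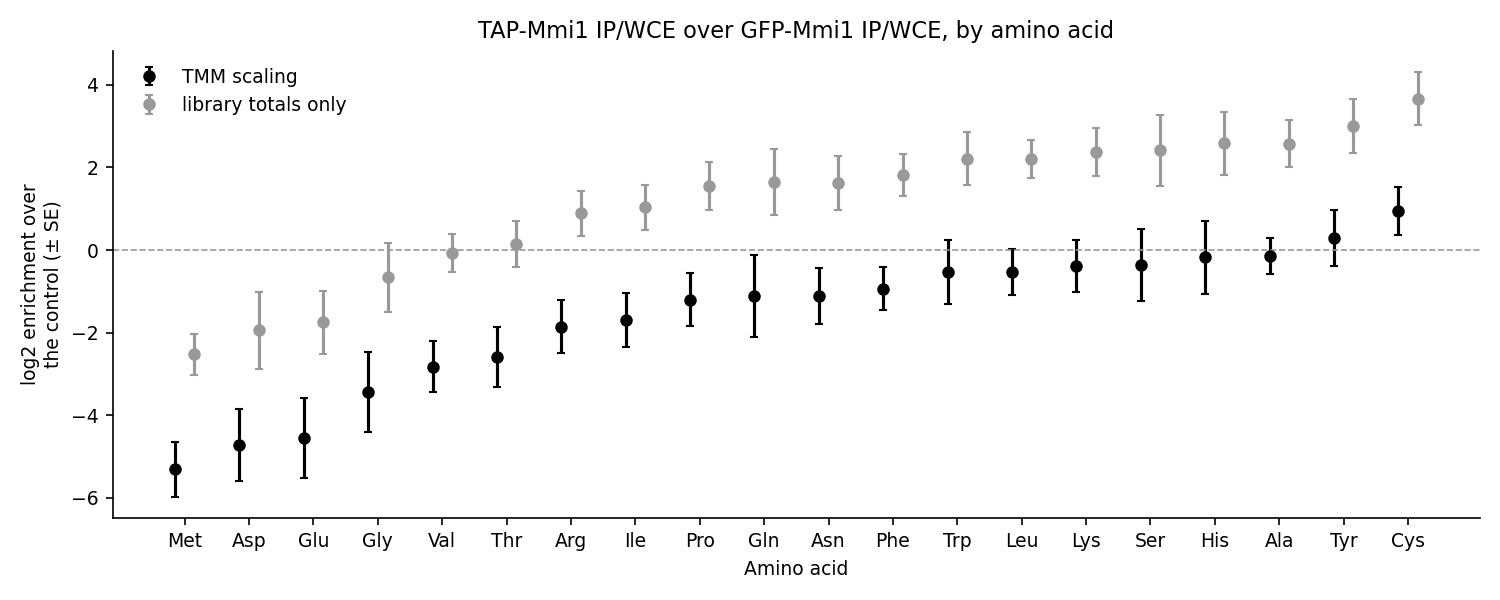
Log2 enrichment over the control of tRNA counts summed by amino acid (points, with SE as bars), with all 8 libraries, scaled by TMM and by library totals only. With TMM, Met, Asp and Glu lie lowest at −5.30, −4.72 and −4.54, and only Tyr and Cys lie above 0.

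The ratios of each strain show what stands behind these values. With both libraries scaled to counts outside rRNA, IP over WCE was 0.100 and 0.0321 for Met in the TAP-Mmi1 strain, against 1.51 and 1.92 in the GFP-Mmi1 strain. For Asp it was 0.0588 and 0.0489 with TAP-Mmi1, against 1.01 and 1.32 with GFP-Mmi1. For Cys it was 9.69 and 5.20 with TAP-Mmi1, against 2.08 and 4.26 with GFP-Mmi1. Over all 20 sums and both replicates the TAP-Mmi1 ratios ran from 0.0229 (Glu) to 9.69 (Cys) and the GFP-Mmi1 ratios from 0.206 (Gln) to 4.26 (Cys), so the amino acids were spread more widely with TAP-Mmi1.

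**Figure D3:**
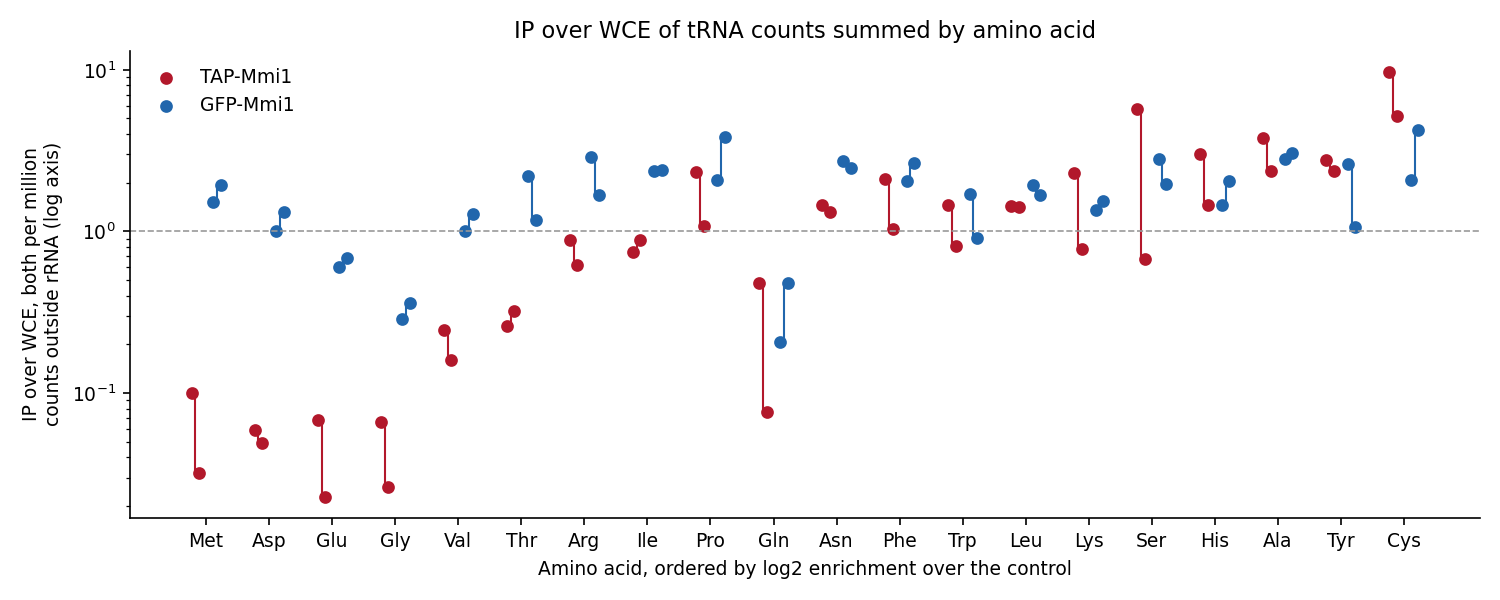
IP over WCE of tRNA counts summed by amino acid, both scaled to counts outside rRNA, on a log axis, for the 2 replicates (points joined by a line) of each strain. The TAP-Mmi1 values run from 0.0229 for Glu to 9.69 for Cys, and the GFP-Mmi1 values from 0.206 for Gln to 4.26 for Cys.

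Tested within the TAP-Mmi1 strain, 7 sums were lower in IP than in WCE and 3 were higher, where 30.8% and 29.5% of all features were lower and higher. On the log2 scale IP minus WCE was −4.69 for Glu, −4.58 for Gly, −4.01 for Met, −2.18 for Gln, −2.14 for Val and −1.44 for Thr, with Asp next to Met (adjusted p from 0.000248 to 0.0352). Cys rose by 3.14 (SE 0.38, adjusted p = 0.000210), Ala by 1.89 (SE 0.30, adjusted p = 0.000844) and Tyr by 1.62 (SE 0.44, adjusted p = 0.0131). Cys tRNA had 511 and 373 counts in the TAP-Mmi1 IPs against 320 and 381 in TAP-Mmi1 WCE, although the extracts were the deeper libraries outside rRNA. Ala tRNA had 237 and 197 counts in the TAP-Mmi1 IPs against 378 and 441 in TAP-Mmi1 WCE. Ser tRNA had 2755 and 826 counts in the TAP-Mmi1 IPs against 2913 and 6512 in TAP-Mmi1 WCE, so its replicates differed more than its groups, and its rise of 1.35 did not pass (SE 0.59, adjusted p = 0.0819). Without TAP-Mmi1 WCE replicate 2, Gln and Thr no longer passed (−1.12 and −0.75), while Leu, Phe, Ser, His, Lys and Pro passed as higher.

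In the GFP-Mmi1 strain 6 sums were higher in IP than in WCE and 0 were lower, where 11.5% and 6.73% of all features were higher and lower. Cys rose by 2.20, Pro by 2.07, Ala by 2.04, Asn by 1.86, Phe by 1.75 and Ile by 1.75 on the log2 scale (adjusted p from 0.00779 to 0.0473). Cys and Ala thus rose in both strains, that is, also where Mmi1 carried no TAP tag. These control calls rest on 10 and 24 counts in the GFP-Mmi1 IPs for Cys and 22 and 25 for Ala, 0 of the 6 passed without either GFP-Mmi1 WCE, 1 passed without GFP-Mmi1 IP replicate 2 and 3 without TAP-Mmi1 IP replicate 1. With culture as a block 9 sums were higher and 1 was lower, where 8.24% and 3.78% of all features were higher and lower.

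Between the extracts, no amino acid sum differed past the threshold (0 higher and 0 lower in TAP-Mmi1 WCE than in GFP-Mmi1 WCE, where 0.479% and 0.0598% of all features were higher and lower). At an unadjusted p under 0.05 there were 10 sums higher and 0 lower. DESeq2 called 4 higher and 0 lower, where 270 and 104 of 6784 features were higher and lower. Met was nearest, with 28421 and 65198 counts in TAP-Mmi1 WCE against 7123 and 7140 in GFP-Mmi1 WCE (log2 difference 2.56, SE 0.46, adjusted p = 0.0817). Here both TAP-Mmi1 extracts lay above both GFP-Mmi1 extracts. Without TAP-Mmi1 WCE replicate 2 the Met difference was 1.58 (adjusted p = 0.220), and that of the whole tRNA sum was 0.03, against 1.12 with it (adjusted p = 0.527).

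Isoacceptors of the same amino acid did not share a value. Lys and Val are shown first, from the amino acids that have a tRNA from intron-containing genes beside one from genes without an intron. Ala, Arg, Ile, Leu, Met, Pro and Ser have both kinds too. In Ile the order was the reverse of that in Lys and Val. The intron-containing Ile-TAT-1 was lowest at −2.54, and the highest Ile sequence, from genes without an intron and with few GFP-Mmi1 IP counts, stood at 3.23. In Leu and Ser the lowest sequence also came from intron-containing genes, Leu-TAA-1 at −1.73 and Ser-TGA-1 at −2.76. The highest Leu and Ser sequences stood at 2.58 and 1.30. The order of the 2 kinds thus differed between amino acids, and Lys and Val are not typical of all. Lys-CTT-1, whose 9 genes all hold an intron, had 258 and 182 counts in the TAP-Mmi1 IPs and 531 and 847 in TAP-Mmi1 WCE, against 3 and 6 in the GFP-Mmi1 IPs and 291 and 261 in GFP-Mmi1 WCE. Lys-TTT-1, with 2 genes and no intron, had 7 and 9 counts in the TAP-Mmi1 IPs and 166 and 382 in TAP-Mmi1 WCE, against 14 and 14 in the GFP-Mmi1 IPs and 47 and 62 in GFP-Mmi1 WCE. The 2 lysine tRNAs thus lay on opposite sides of 0, at 1.93 for Lys-CTT-1 (SE 0.75, adjusted p = 0.0714) and −5.51 for Lys-TTT-1 (SE 0.93, adjusted p = 0.00247). Without TAP-Mmi1 WCE replicate 2 the values were 2.65 for Lys-CTT-1, then past the threshold (adjusted p = 0.0379), and −4.42 for Lys-TTT-1 (adjusted p = 0.0132). The Lys sum of −0.39 is a mean of these unlike parts.

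The valine tRNAs split in the same manner. Val-AAC-1, with 9 genes that all hold an intron, had 114 and 129 counts in the TAP-Mmi1 IPs and 211 and 339 in TAP-Mmi1 WCE, against 4 and 5 in the GFP-Mmi1 IPs and 140 and 152 in GFP-Mmi1 WCE. Val-TAC-1, with 2 genes and no intron, had 78 and 169 counts in the TAP-Mmi1 IPs and 4636 and 9468 in TAP-Mmi1 WCE, against 137 and 179 in the GFP-Mmi1 IPs and 3676 and 3269 in GFP-Mmi1 WCE. Enrichment over the control was 1.49 for Val-AAC-1 (SE 0.72, adjusted p = 0.136) and −3.76 for Val-TAC-1 (SE 0.71, adjusted p = 0.00413), or 2.21 (adjusted p = 0.0712) and −2.79 (adjusted p = 0.0114) without TAP-Mmi1 WCE replicate 2. In Arg, Arg-TCT-1, from a single gene, stood at −8.24 (adjusted p = 0.00239; −7.17 without that library), a value that rests on 1 and 0 counts in the TAP-Mmi1 IPs. Arg-ACG-1, from 8 genes, stood at −0.55 (adjusted p = 0.651). The near-identical Arg-TCT-2 was counted more, with 38 and 25 counts in the TAP-Mmi1 IPs and 557 and 1217 in TAP-Mmi1 WCE, against 30 and 21 in the GFP-Mmi1 IPs and 271 and 332 in GFP-Mmi1 WCE. The difference between isoacceptors was itself not tested. In Met, both tRNAs were lower, Met-CAT-1 at −5.51 (SE 0.66, adjusted p = 0.000493) and the intron-containing Met-CAT-2 at −3.32 (SE 0.83, adjusted p = 0.0146). Glu-CTC-1 (−5.37) and Glu-TTC-1 (−3.41) were both lower too (adjusted p = 0.00592 and 0.0308). An intron did not always go with a high value: Ser-TGA-1 and Ile-TAT-1, from intron-containing genes, were lower at −2.76 (adjusted p = 0.00780) and −2.54 (adjusted p = 0.0198). Of these 6 sequences only Met-CAT-1 (−4.42) and Glu-CTC-1 (−3.79) still passed without TAP-Mmi1 WCE replicate 2. In that fit Met-CAT-2 stood at −2.22 (adjusted p = 0.0593), Glu-TTC-1 at −1.98 (adjusted p = 0.0741), Ser-TGA-1 at −2.19 (adjusted p = 0.0589) and Ile-TAT-1 at −1.75 (adjusted p = 0.100).

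Summed over genes, the 44 genes with an intron had 3779 and 2159 counts in the TAP-Mmi1 IPs and 7055 and 12106 in TAP-Mmi1 WCE, against 307 and 327 in the GFP-Mmi1 IPs and 3963 and 4045 in GFP-Mmi1 WCE. The 127 genes without an intron had 3615 and 5363 counts in the TAP-Mmi1 IPs and 140582 and 361005 in TAP-Mmi1 WCE, against 4238 and 5653 in the GFP-Mmi1 IPs and 109506 and 100012 in GFP-Mmi1 WCE. Scaled to counts outside rRNA (CPM), the intron genes stood at 497 and 316 CPM in the TAP-Mmi1 IPs against 246 and 238 CPM in the GFP-Mmi1 IPs. The other genes stood at 476 and 784 CPM in the TAP-Mmi1 IPs against 3393 and 4113 CPM in the GFP-Mmi1 IPs. On this scale the intron genes were thus higher and the other genes lower in the TAP-Mmi1 IPs, neither with overlap. The side without an intron rested largely on Asp tRNA. Asp alone stood at 118 and 331 CPM in the TAP-Mmi1 IPs against 2620 and 3217 CPM in the GFP-Mmi1 IPs. The intron side rested on SPATRNASER.01, which gave 2465 and 431 counts in the TAP-Mmi1 IPs. Without it the intron genes had 1314 and 1728 counts there, against 254 and 278 in the GFP-Mmi1 IPs. Scaled to counts outside rRNA, replicate 1 of the TAP-Mmi1 IPs then lay below both GFP-Mmi1 IPs and replicate 2 above them. The fitted sums that follow include SPATRNASER.01 on the intron side and Asp and the initiator tRNA on the other. They are therefore not a measure of the typical gene of either kind. The enrichment of the intron sum was −0.40 (SE 0.53, adjusted p = 0.575) and that of the other sum −3.80 (SE 0.71, adjusted p = 0.00379), or 0.39 (adjusted p = 0.515) and −2.59 (adjusted p = 0.00483) without TAP-Mmi1 WCE replicate 2. Within the TAP-Mmi1 strain the intron sum rose by 1.08 in IP over WCE (SE 0.37, adjusted p = 0.0347; 0.128 with culture as a block), while the other sum fell by 3.06 (SE 0.52, adjusted p = 0.00138). Without TAP-Mmi1 WCE replicate 2 these were 1.75 and −1.97, both past the threshold. In the GFP-Mmi1 strain IP minus WCE was 1.48 for the intron sum (adjusted p = 0.0375; 0.148 with culture as a block) and 0.74 for the other (adjusted p = 0.326). The counts are per gene, so they do not tell whether the reads held the intron.

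Gene by gene, 163 of the 171 members had enough counts to be fitted. The 8 others were SPATRNAALA.01, SPATRNAALA.02, SPATRNAALA.04, SPATRNAALA.05, SPATRNAILE.03, SPATRNAILE.04, SPBTRNAVAL.06 and SPCTRNAVAL.12, with at most 23 counts in any library. In enrichment over the control 43 genes were lower and 2 were higher, or 26.4% and 1.23% of those fitted, where 23.7% and 18.9% of all features were lower and higher. The share of lower genes was thus near that of all features, and the share of higher genes below it. With culture as a block 43 were lower and 0 higher, where 20.9% and 15.7% of all features were lower and higher. The members' median was −1.89 and that of all features −0.05. Setting the 12 genes with no IP counts in one strain and counts above the floor in the other to a bound from that floor, 3 counts over the group, gave a median of −1.96. Under library totals the split was 40 higher and 11 lower, where 89.5% and 0.469% of all features were higher and lower, and the members' median of 0.83 again lay below the 2.63 of all features. The lower genes were 8 of 8 for Asp, 6 of 7 for Met, 5 of 10 for Glu, 5 of 12 for Gly, 4 of 10 for Thr, 3 each for Ser and Val, 2 each for Arg and Lys, and 1 each for Asn, Cys, Ile, Leu and Pro. Fewer genes were lower without TAP-Mmi1 WCE replicate 2 (23, or 14.2% of those fitted, where 14.3% of all features were lower), without GFP-Mmi1 WCE replicate 1 (22, or 13.2%, where 13.8% were) and without GFP-Mmi1 WCE replicate 2 (23, or 13.8%, where 13.7% were), so there the members' share was that of all features.

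Within the TAP-Mmi1 strain 57 genes were lower and 25 higher in IP than in WCE, where 30.7% and 29.1% of all features were lower and higher. The lower genes were led by 10 Gly, 9 Glu, 8 Asp, 8 Thr and 6 Met genes, and the higher genes by 6 Lys and 4 Ala genes. With library totals 110 were lower and 2 higher, where 84.7% and 3.97% of all features were lower and higher. In the GFP-Mmi1 strain 10 genes were higher and 0 lower in IP than in WCE, where 11.1% and 6.47% of all features were higher and lower (32 higher and 0 lower at an unadjusted p under 0.05). DESeq2 called 30 higher and 0 lower, where 1146 and 939 of 6935 features were higher and lower. The edgeR count of higher genes was 0 without either GFP-Mmi1 WCE, and with library totals 155 were lower and 0 higher, where 98.2% and 0.747% of all features were lower and higher. Between extracts 0 genes were higher and 0 lower in TAP-Mmi1 WCE than in GFP-Mmi1 WCE, where 0.293% and 0.0586% of all features were higher and lower (32 higher and 0 lower at an unadjusted p under 0.05). DESeq2 called 7 higher and 0 lower there, where 267 and 103 of 6935 features were higher and lower.

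The genes with the lowest enrichment were also those with almost no counts in the TAP-Mmi1 IPs. SPATRNAGLU.04 had 0 and 0 counts in the TAP-Mmi1 IPs and 79 and 248 in TAP-Mmi1 WCE, against 1 and 2 in the GFP-Mmi1 IPs and 71 and 68 in GFP-Mmi1 WCE. SPBTRNAGLY.04 had 0 and 0 counts in the TAP-Mmi1 IPs and 17 and 67 in TAP-Mmi1 WCE, against 1 and 0 in the GFP-Mmi1 IPs and 15 and 12 in GFP-Mmi1 WCE. Both strains' IPs were at or under the floor of 3 counts, so no fold is given for these 2 genes (adjusted p = 0.0585 for SPATRNAGLU.04, and 0.0466 with culture as a block). SPCTRNAARG.08 (III:578847-578919), which carries the anticodon TCT, had 1 and 0 counts in the TAP-Mmi1 IPs and 117 and 260 in TAP-Mmi1 WCE, against 18 and 8 in the GFP-Mmi1 IPs and 70 and 86 in GFP-Mmi1 WCE. The GFP-Mmi1 IPs were above the TAP-Mmi1 IPs here in spite of their lower depth, and the recovery ratio between strains was 0.00327 (95% exact counting interval 8.27e-05 to 0.0182, adjusted p = 0.00255). SPBTRNAMET.04 (II:658451-658531), an elongator Met gene, had 1 and 2 counts in the TAP-Mmi1 IPs and 213 and 494 in TAP-Mmi1 WCE, against 6 and 22 in the GFP-Mmi1 IPs and 103 and 106 in GFP-Mmi1 WCE. Its ratio was 0.00650 (interval 0.00134 to 0.0190, adjusted p = 0.00327). SPATRNAGLU.03 (I:3765434-3765505) had 3 and 3 counts in the TAP-Mmi1 IPs and 723 and 2615 in TAP-Mmi1 WCE, against 11 and 22 in the GFP-Mmi1 IPs and 825 and 662 in GFP-Mmi1 WCE (enrichment −6.02, SE 1.36, adjusted p = 0.00953).

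The genes with the highest fitted values all had no counts in either GFP-Mmi1 IP, so only lower bounds can be given. SPBTRNALYS.07 had 64 and 33 counts in the TAP-Mmi1 IPs and 62 and 59 in TAP-Mmi1 WCE, against 0 and 0 in the GFP-Mmi1 IPs and 29 and 28 in GFP-Mmi1 WCE. Against a floor of 3 counts over the 2 control IPs its recovery was at least 3.13-fold higher with TAP-Mmi1 (adjusted p = 0.0316; 0.0978 with culture as a block). The bounds were at least 1.92-fold higher for SPCTRNALYS.10, 1.57-fold higher for SPBTRNALYS.09, 1.34-fold higher for SPATRNAARG.01 and 1.30-fold higher for SPBTRNALEU.08, none past the threshold. SPATRNAVAL.04 was the second gene called higher, with 83 and 97 counts in the TAP-Mmi1 IPs and 52 and 58 in TAP-Mmi1 WCE, against 1 and 4 in the GFP-Mmi1 IPs and 37 and 51 in GFP-Mmi1 WCE. SPBTRNALYS.07 is 1 of the 9 Lys-CTT-1 copies and SPATRNAVAL.04 is 1 of the 9 Val-AAC-1 copies, so their own counts are uncertain. Other Val-AAC-1 genes have the same whole sequence as SPATRNAVAL.04, intron included. Of these SPBTRNAVAL.08, for example, had 1 and 1 counts in the TAP-Mmi1 IPs. The enrichment of SPATRNAVAL.04, 2.53 (SE 0.87, adjusted p = 0.0486), was at the edge of the threshold, with an adjusted p of 0.121 with culture as a block. Both called genes hold an intron.

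In 6 genes the mean ratio of TAP-Mmi1 IP to WCE counts exceeded 1, before any scaling for the rRNA that filled the IPs. Besides SPATRNAVAL.04 and SPCTRNALYS.10 these were SPATRNASER.01, SPATRNACYS.01, SPATRNAALA.03 and SPCTRNAILE.09. SPATRNASER.01, which carries the anticodon CGA, had 2465 and 431 counts in the TAP-Mmi1 IPs and 773 and 1044 in TAP-Mmi1 WCE, against 53 and 49 in the GFP-Mmi1 IPs and 438 and 359 in GFP-Mmi1 WCE. Replicate 1 of the TAP-Mmi1 IPs alone set its level, since the enrichment was 1.31 with it (SE 1.03, adjusted p = 0.345), −0.44 without it and 2.07 without replicate 2. SPATRNACYS.01 (I:1421149-1421221) had 499 and 369 counts in the TAP-Mmi1 IPs and 230 and 218 in TAP-Mmi1 WCE, against 1 and 18 in the GFP-Mmi1 IPs and 91 and 90 in GFP-Mmi1 WCE. Both TAP-Mmi1 IPs were above all other libraries, and IP over WCE within that strain rose by 3.79 (adjusted p = 0.000646), but the enrichment of 1.89 (SE 0.87, adjusted p = 0.119) did not pass. SPATRNAALA.03 had 79 and 40 counts in the TAP-Mmi1 IPs and 53 and 62 in TAP-Mmi1 WCE, against 1 and 10 in the GFP-Mmi1 IPs and 31 and 30 in GFP-Mmi1 WCE (enrichment 0.19, SE 1.13, adjusted p = 0.909). SPCTRNAILE.09 had 25 and 72 counts in the TAP-Mmi1 IPs and 29 and 11 in TAP-Mmi1 WCE, against 2 and 0 in the GFP-Mmi1 IPs and 21 and 27 in GFP-Mmi1 WCE. Its IP was higher in replicate 2 and its extract in replicate 1. By the annotation SPATRNAVAL.04 lay 68 nt from the non-coding RNA gene SPNCRNA.929 on the same strand and SPATRNAALA.03 lay 97 nt from peg1 on the opposite strand, while SPATRNACYS.01 was 596 nt and SPCTRNAILE.09 939 nt from the nearest other gene.

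Genes below the median WCE count had the higher median enrichments, both with and without an intron. The 2 quantities are tied, since TAP-Mmi1 WCE counts enter the WCE mean and also divide the IP counts in the enrichment. Among the 82 fitted genes at or above the median WCE count of 109, the median enrichment was −1.90 for the 14 with an intron and −3.88 for the 68 without. Among the 81 below it, the medians were 1.35 for the 28 with an intron and −0.75 for the 53 without, or 0.80 and −1.23 with genes at 0 set to their bound. WCE counts were not matched in these comparisons, since the genes above the median ran to 1465 counts with an intron and to 17231 without, and identical copies count as separate genes. Of 42 fitted genes with an intron 5 were lower and 2 higher, and of 121 without 38 were lower and 0 higher, where 23.7% and 18.9% of all features were lower and higher. Depth in the control IPs moves with this ordering, because all 14 fitted genes at 0 in both GFP-Mmi1 IPs were below the median WCE count, and its part in it was not tested. The 23 fitted genes within the centromere intervals had a median of −1.84, beside −1.98 for the 140 outside them. The intervals cut through tRNA clusters, so genes next to centromeric ones can count as outside. SPBTRNAARG.06, for example, is outside and lies 86 nt from SPBTRNAASP.05, which is inside.

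**Figure D4:**
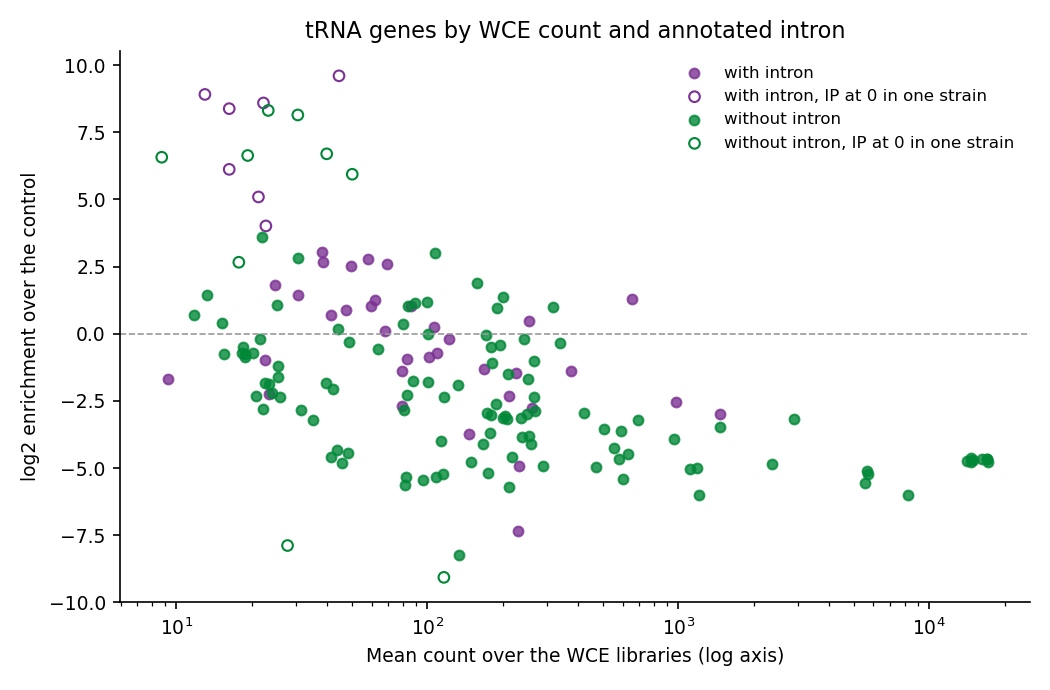
Log2 enrichment over the control of the 163 fitted tRNA genes against their mean count over the 4 WCE libraries (log axis), for genes with and without an annotated intron. Open circles are genes with no IP counts in both libraries of one strain, whose fitted values are not bounds. The Asp genes lie at the far right near −4.7, and most values above 0 belong to rarely counted genes at the left.

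Identical copies show how far a count belongs to its gene. The 8 Asp genes share Asp-GTC-1, their mean WCE counts differed by at most 1.22-fold, and their enrichments ran from −4.79 (SPCTRNAASP.05) to −4.63 (SPCTRNAASP.08), so they are 1 measurement given 8 times. The most counted, SPCTRNAASP.05, had 117 and 273 counts in the TAP-Mmi1 IPs and 12518 and 34047 in TAP-Mmi1 WCE, against 445 and 543 in the GFP-Mmi1 IPs and 11772 and 10588 in GFP-Mmi1 WCE. SPBTRNAASP.04 and SPATRNAASP.01, the next most counted, stood at −4.66 and −4.68. The 4 initiator genes differed by 1.48-fold in WCE. Of these SPATRNAMET.01, SPATRNAMET.03 and SPCTRNAMET.07 start 7 nt downstream of a Ser gene, an arrangement known to give dimeric precursors, and SPBTRNAMET.06 stands alone. SPBTRNAMET.06 had an enrichment of −5.99, and the other initiator genes −5.12, −5.22 and −5.57. All 4 passed as lower, whether or not a Ser gene lay upstream. Their Ser partners had other values: 1.31 for SPATRNASER.01, −1.48 for SPATRNASER.03 and −2.75 for SPCTRNASER.11 (adjusted p = 0.345, 0.0838 and 0.00884).

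Other identical copies were counted unequally. WCE counts differed by 25.2-fold among the 9 Lys-CTT-1 genes, 21.5-fold among the 3 Met-CAT-2 genes, 12.5-fold among the 6 Glu-CTC-1 genes, 9.29-fold among the 9 Ala-AGC-1 genes and 4.21-fold among the 9 Val-AAC-1 genes. The most counted Lys-CTT-1 gene in WCE, SPATRNALYS.01, had 1 and 0 counts in the TAP-Mmi1 IPs and 208 and 498 in TAP-Mmi1 WCE, against 1 and 1 in the GFP-Mmi1 IPs and 120 and 105 in GFP-Mmi1 WCE. Its copy SPBTRNALYS.08 had 53 and 24 counts in the TAP-Mmi1 IPs and 51 and 57 in TAP-Mmi1 WCE, against 0 and 1 in the GFP-Mmi1 IPs and 26 and 19 in GFP-Mmi1 WCE. Within the TAP-Mmi1 strain IP minus WCE fell by 6.61 for SPATRNALYS.01 (adjusted p = 0.00119) and rose by 2.33 for SPBTRNALYS.08 (adjusted p = 0.0119), although their mature tRNAs are the same. The Cys-GCA-1 pair differed likewise. SPATRNACYS.03, the copy of SPATRNACYS.01, had 5 and 2 counts in the TAP-Mmi1 IPs and 49 and 96 in TAP-Mmi1 WCE, against 5 and 5 in the GFP-Mmi1 IPs and 25 and 23 in GFP-Mmi1 WCE (enrichment −4.45, adjusted p = 0.0136). The sources used here do not say how reads with several matches were assigned to copies, and its part in these differences was not tested. Values of single copies are therefore uncertain, while sums over identical copies do not depend on the split among them.

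**Figure D5:**
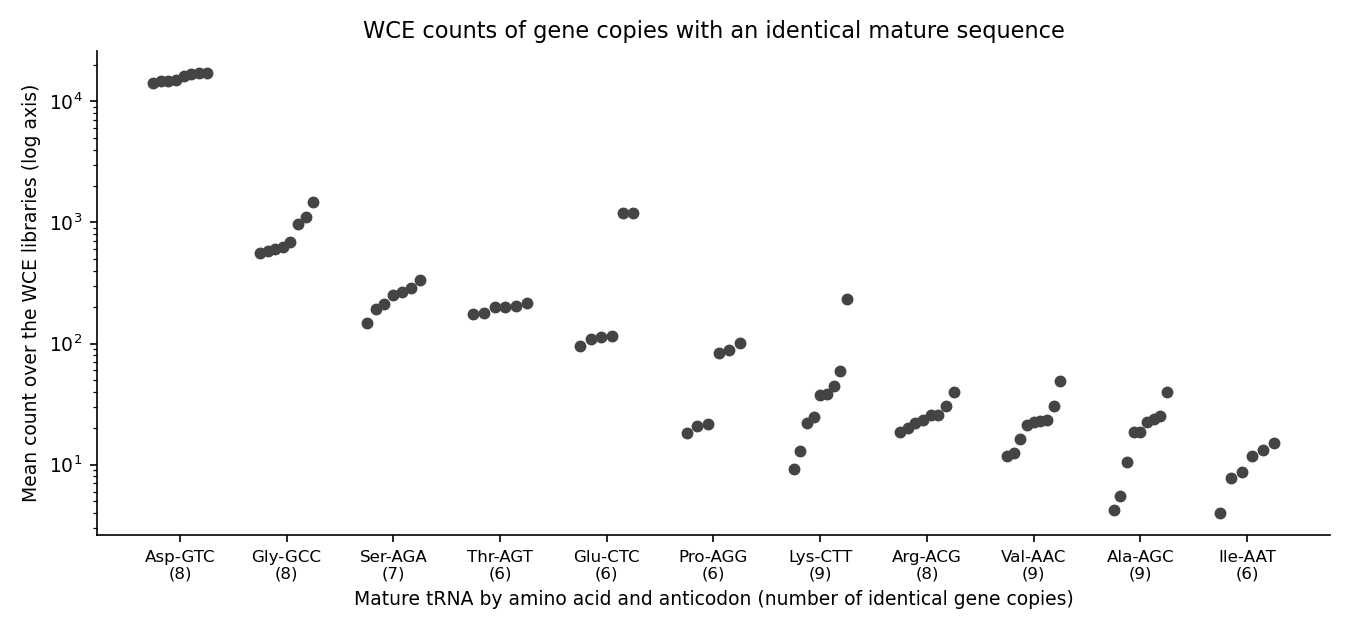
Mean count over the 4 WCE libraries (log axis) of each gene copy (points) for the 11 mature tRNA sequences with 6 or more identical genes. The 8 Asp-GTC copies lie within 1.22-fold of each other, and the 9 Lys-CTT copies are spread over 25.2-fold.

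The study's own way to call a feature reproducibly enriched can be applied to the same counts. It takes the ratio of IP to WCE counts, asks that the TAP-Mmi1 ratios have a relative SD under 0.3, and that their mean be over 2 times that of the control. It retained 23 of the 171 tRNA genes (13.5%), where it retained 58.2% of all features. These were 4 Leu, 3 Ala and 3 Ser genes, 2 each for Ile, Pro, Tyr and Val, and 1 each for Arg, Cys, His, Lys and Trp, with none for Asn, Asp, Gln, Glu, Gly, Met, Phe and Thr. The rule kept 12 of 44 genes with an intron (27.3%) and 11 of 127 without (8.66%). The tRNA genes fell short of all features on both of its parts. Over 2 times the control were 77 tRNA genes (45.0%), where at least the 58.2% of all features that the rule retained were. A relative SD under 0.3 was met by 49 (28.7%, beside 68.4% of all features). The rule uses raw counts, in which the GFP-Mmi1 IPs have more rRNA, and it retained 11 tRNA genes with TMM-scaled counts, 13 with counts scaled outside rRNA, and 1 when every library had to hold at least 10 counts. The shares of all features at these settings are not given here. These 3 counts therefore do not show a change particular to tRNAs.

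Genes that make, charge or process tRNAs are listed for comparison, with the same enrichment over the control, in which 23.7% of all features were lower and 18.9% higher. Of the 35 mRNAs for aminoacyl-tRNA synthetases, which join amino acids to tRNAs, 20 were lower and 5 higher, with a median of −0.97. Of the 23 mRNAs for the RNA polymerase III machinery 1 was lower and 6 were higher, with a median of 0.19. Of the 9 mRNAs for tRNA maturation, such as splicing endonuclease subunits and the tRNA ligase trl1, sen54 was lower (−1.06, adjusted p = 0.00390) and trz2, a 3′-end endonuclease, was higher (0.89, adjusted p = 0.0127), with a median of −0.02. Of 61 other mRNAs with tRNA in the product name 3 were lower and 15 higher, with a median of 0.14. Other RNA polymerase III transcripts, mostly 5S rRNA, included 33 lower and 0 higher of 39, with a median of −3.60. In each strain 36 of the 39 rose in IP over WCE, and the depletion of rRNA from WCE alone moves with that.

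Mmi1 is known to bind UNAAAC. Its DNA form TNAAAC, searched in mature tRNA sequences on the transcribed strand, was present in 2 of 171 genes (1.17%), SPATRNALEU.02 and SPBTRNALEU.05, which share Leu-TAA-1. Of 6642 windows of 73 nt from other listed genes 10.9% held it. On the opposite strand it was present in 9 genes (5.26%), beside 12% of windows. Leu-TAA-1 had an enrichment over the control of −1.73 (SE 0.76, adjusted p = 0.104). The letters TTTG, TTGG or TTAG, searched for Mei2, were present in 106 genes (62.0%), beside 70.4% of windows, and on the opposite strand in 68 genes (39.8%), beside 66.9%. A match of these letters is a description and not a binding site.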

How the data were processed

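The 8 libraries, 75 nt reads from 4 groups of 2, were made from IP and WCE RNA of both strains. According to the methods and the submitters' processing notes, reads were demultiplexed with bcl2fastq 2.18.12, trimmed with Cutadapt 1.15, aligned with Bowtie2 and counted with MulticovBed. The values are unnormalized counts of reads on each annotated feature, deposited as 1 file a library. Genome build, annotation, strand setting and the handling of reads with several matches are not given in the sources used here.

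Counts of the whole table were fitted as deposited with edgeR 4.0.16 (R 4.3.3): filterByExpr, TMM and the robust quasi-likelihood test on all 8 libraries as 4 groups, with Benjamini-Hochberg adjustment and a threshold of 0.05. Standard errors were computed from the log2 difference and its F statistic. The fit was repeated with tRNA rows replaced by sums over amino acids, over all genes, over distinct mature sequences, and over genes with and without an intron (the last pair of sums was added after the data were seen). Scripts were tested on simulated counts. Alternatives were DESeq2 1.42.0, other scalings, no filter, each library left out, and replicate blocks. IP and WCE of the same strain and number were taken to be 1 culture. Their deviations from the group means correlated at 0.09 (TAP-Mmi1) and 0.02 (GFP-Mmi1) over 6828 features. The block was an alternative.

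All amino acids are named. Single genes named are the 5 highest and 5 lowest enrichments, the 3 with most WCE counts, those with a mean TAP-Mmi1 IP/WCE ratio above 1, and members of the largest groups of identical copies. Other genes named beside copies, neighbours or motifs were chosen after their values were seen. Members and lists were chosen with earlier results of these data known. The synthetase list was widened once to catch all product names. Intervals are 95% and cover counting error only, and a floor is 3 counts. Positions and sequences are from RefSeq (ASM294v3), where all 171 names matched. The annotated strand of SPBTRNAASP.05 disagreed with its sequence and was turned round, and 2 genes took the intron of a copy with the same whole sequence.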

Additional observations from a re-analysis of the deposited data

How the results depend on the processing

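Library totals, which keep the rRNA of the IPs in the scale, moved the results most. The median of all features in enrichment over the control went to 2.63, beside −0.05 with TMM. Relative to 0, that scaling gave 13 amino acid sums past the threshold (11 higher, 2 lower), 16 lower and 0 higher in TAP-Mmi1 IP against WCE, 20 lower in GFP-Mmi1 IP against WCE, and 1 between extracts. By gene it gave 155 lower in GFP-Mmi1 IP against WCE and 3 between extracts. The sum of all tRNAs was −0.38 in enrichment over the control and −4.29 in GFP-Mmi1 IP against WCE. Sums that turned positive in enrichment over the control were Ala 2.58, Arg 0.89, Asn 1.62, Gln 1.66, His 2.58, Ile 1.04, Leu 2.20, Lys 2.37, Phe 1.81, Pro 1.56, Ser 2.41, Thr 0.14, Trp 2.21 and the intron sum 2.36, none of which except Thr had passed with TMM. Scaled to counts outside rRNA, Ala (0.0146) and His (0.0213) turned. As shares of all counts, tRNAs made up 0.0201% in TAP-Mmi1 IP, 0.0153% in GFP-Mmi1 IP and 0.298% in GFP-Mmi1 WCE.

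DESeq2 called 30 genes and 10 sums in GFP-Mmi1 IP against WCE, all higher. In the fit with sums, 1138 of 6784 features were higher and 929 lower. Between extracts it called 7 genes and 4 sums, beside the counts over all features given with the results. With culture as a replicate block 10 sums passed in GFP-Mmi1 IP against WCE, and His was 0.0774. In enrichment over the control that block changed no call among the sums and named genes other than those given beside the results. With the replicate number as a replicate block His was 0.0655 and 1 gene passed between extracts. The ratio of IP to WCE retained 11 genes with TMM, 13 when scaled to counts outside rRNA, 12 at a relative SD under 0.2, 1 with at least 10 counts in every library, 20 at 3 times the control, and 24 and 25 without either GFP-Mmi1 culture. The shares of all features at these settings are not given here.

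Leaving out single libraries gave 22 to 51 genes past the threshold in enrichment over the control, 50 to 89 in TAP-Mmi1 IP against WCE, 0 to 10 in GFP-Mmi1 IP against WCE (0 to 7 sums) and 0 to 4 between extracts (0 to 1 sums). Sums that changed sign among these were Ala (−0.30 to 0.28), Gln (−1.79 to 0.0539), His (−0.68 to 1.02), Leu (−0.98 to 0.14), Lys (−0.76 to 0.45), Ser (−1.47 to 0.70), Trp (−0.97 to 0.49), Tyr (−0.17 to 1.01) and the intron sum (−0.85 to 0.39). Among genes SPATRNASER.01 ran from −0.44 to 2.07 and SPATRNAALA.03 from −0.70 to 2.70. The cause was not tested. No filter and rRNA left out before the fit changed no direction or call among the sums and genes named. With 2 libraries a group and 125 genes under 10 counts in both GFP-Mmi1 IPs, single rare genes were not resolved.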
